A study of Mus musculus with 2 samples.

Results

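Pluripotent-like cells were chosen by the detection of 5 pluripotency genes, Utf1, Tdgf1, Tdh, Nanog and Dppa4: a cell was gated when at least 3 of these 5 had a value above 0 in the deposited table. The gate took 557 of 7023 cells. All were mouse cells of unsorted cultures at day 16 of STEMCCA reprogramming, in which a doxycycline-inducible cassette carrying Pou5f1, Sox2, Klf4 and Myc turns mouse embryonic fibroblasts (MEFs) into induced pluripotent stem cells (iPSCs). Both libraries received doxycycline and ascorbic acid in mouse embryonic stem cell medium. The study describes separate transgenic STEMCCA mouse systems, and the labels hold no key from library to system. The libraries serve here as replicates 1 and 2 of 1 group. Uninduced cells were not analysed here.

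Pluripotency rests on a small network of transcription factors, led by Pou5f1, Sox2 and the gate gene Nanog, which hold one another and a wide set of embryonic genes active. Fibroblasts that enter this state lose their collagen-rich matrix and contractile cytoskeleton, gain epithelial junctions, and take up a fast cell cycle with active ribosome production. The comparison here asked which autosomal programs separated the gated cells from all other cells of the same culture, within each library.

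Replicate 1 had 160 gated cells of 3109 (5.15%, 95% exact binomial interval 4.40 to 5.98). Replicate 2 had 397 of 3914 (10.1%, 9.22 to 11.1). All intervals given here account for counting error and nothing else. Gated cells were deeper than the others. Their medians in replicates 1 and 2 were 28353 and 26097 unique molecular identifiers (UMIs, which count RNA molecules), and those of other cells 15189 and 13641. The median number of detected genes was 4380 and 4213 in gated cells, and 3266 and 2925 in other cells. Mitochondrial RNA made up a median of 3.26% and 3.39% of the UMIs of gated cells, and 4.06% and 4.09% of those of other cells. A deeper cell passes a detection gate more easily, so the counts were also taken against other cells weighted to the same depth. Lost calls were followed for 176 genes and are given beside those of them named below. Other named genes were not followed singly. Of the 24 cells whose barcode occurred in both libraries, 0 were gated.

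The gate genes themselves are described and not tested, since they chose the cells. In gated cells of replicates 1 and 2, Utf1 had a UMI in 157 of 160 and 395 of 397 cells, Tdgf1 in 156 and 385, Tdh in 152 and 363, Nanog in 143 and 335, and Dppa4 in 139 and 350. Most cells lay far from the threshold. In replicate 1, 2057 cells had 0 gate genes, 805 had 1 and 87 had 2, while 13 had 3, 27 had 4 and 120 had 5. Replicate 2 had the same shape, with 2505, 912 and 100 cells outside the gate and 31, 95 and 271 inside it. The sparsest class in both libraries was therefore the one just inside the threshold.

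**Figure D1:**
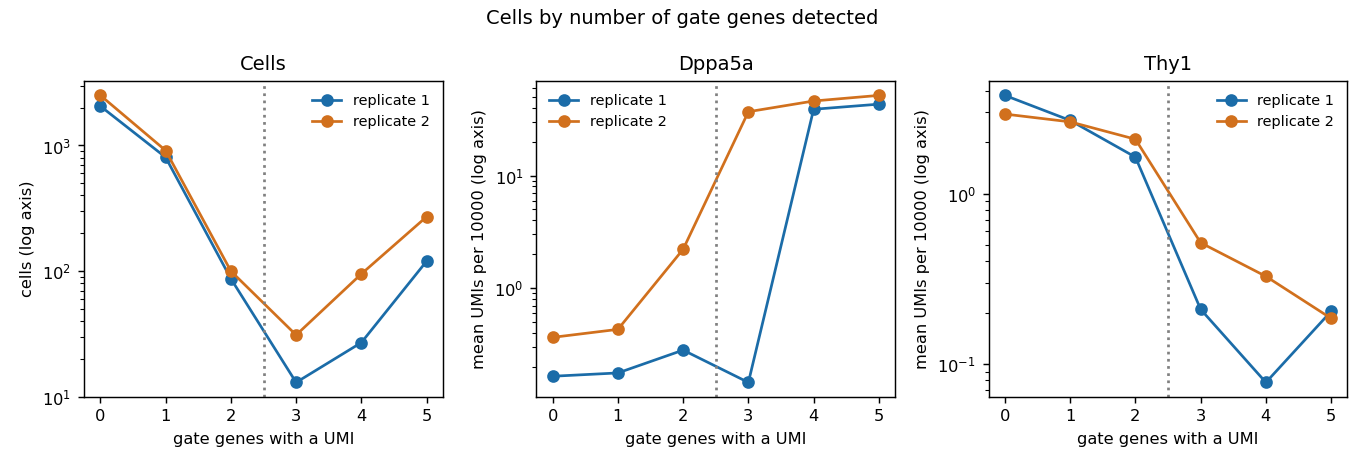
Number of cells (left, log axis), mean level of Dppa5a (middle, UMIs per 10000, log axis) and mean level of Thy1 (right, same scale) by the number of gate genes with a UMI, for replicate 1 (blue) and replicate 2 (orange). The dotted line marks the gate. The 13 cells of replicate 1 with 3 gate genes had a Dppa5a mean of 0.146, and the 31 such cells of replicate 2 had 36.8.

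Cells just inside the threshold differed between the libraries, as values that the gate did not use show. Dppa5a, an RNA-binding protein of pluripotent cells, averaged 0.283 UMIs per 10000 in the replicate 1 cells with 2 gate genes, 0.146 in those with 3, 38.7 in those with 4 and 42.9 in those with 5. In replicate 2 the same 4 classes averaged 2.22, 36.8, 45.8 and 51.4. Pou5f1 averaged 0.281, 0.651, 10.7 and 10.7 in replicate 1, and 0.623, 7.87, 9.75 and 12 in replicate 2. So the 13 cells of replicate 1 with exactly 3 gate genes were near the ungated cells in both genes, and most of the 31 cells of replicate 2 were near the gated ones. Zfp42, a zinc finger factor of naive pluripotency, had a mean of 0 in those 13 cells and 0.772 in those 31.

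Those 13 cells went against the label. None of them had a UMI of Dppa4, and 11 had a UMI of Nanog, 10 of Utf1, 10 of Tdgf1 and 8 of Tdh. Against the other gated cells of replicate 1, the genes furthest above them were Tac2 (4.46 UMIs per 10000 against 0.0212), Ly6d (2.96 against 0.00802), Sprr2b (2.03 against 0.00160), Igfbpl1 (1.91 against 0.0438) and Gpx2 (4.19 against 0.232). Epcam, an adhesion protein of epithelia and of pluripotent cells, had a UMI in 11 of the 13, and Krt18, a keratin of simple epithelia, in 9. They are therefore called gated cells with 3 gate genes, and not pluripotent-like, and counts with the gate raised to 4 genes, which leaves out these 13 and the 31 of replicate 2, are given below. Across the whole gate, 146 of 160 cells in replicate 1 and 389 of 397 in replicate 2 had a UMI of both Dppa5a and Pou5f1, and 8 and 3 cells had neither.

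For each gene, the mean over cells of the deposited values, returned to UMIs per 10000, was taken for gated and for other cells of each library. Differences are log2(mean + 0.1) of gated minus other cells, averaged over both libraries, with the standard error (SE) of the limma fit. A gene was called when its Benjamini-Hochberg adjusted p in limma was under 0.05 and each library showed a difference of at least 2-fold in the same direction. Of 8009 autosomal genes tested, 600 were called higher in gated cells (7.49%) and 969 were called lower (12.1%). The median over all 8009 was -0.05. In this design the fold did the selecting: 6170 autosomal genes (77.0%) had an adjusted p under 0.05 in limma, and all 1569 that differed 2-fold in both libraries were among them, with a largest adjusted p of 1.34e-04. Because the cells were chosen from the same measurement, the test says only that a difference was large beside its own variation between the libraries. The limma fit estimates that variation partly from all genes tested. With 2 libraries, the smallest p of an exact sign-flip test (two-sided) is 0.5. Other cells weighted to the depth of the gated cells gave 448 higher and 865 lower. Raising the gate to 4 genes gave 628 and 1018, and 593 of the 600 and 958 of the 969 were called again.

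**Figure D2:**
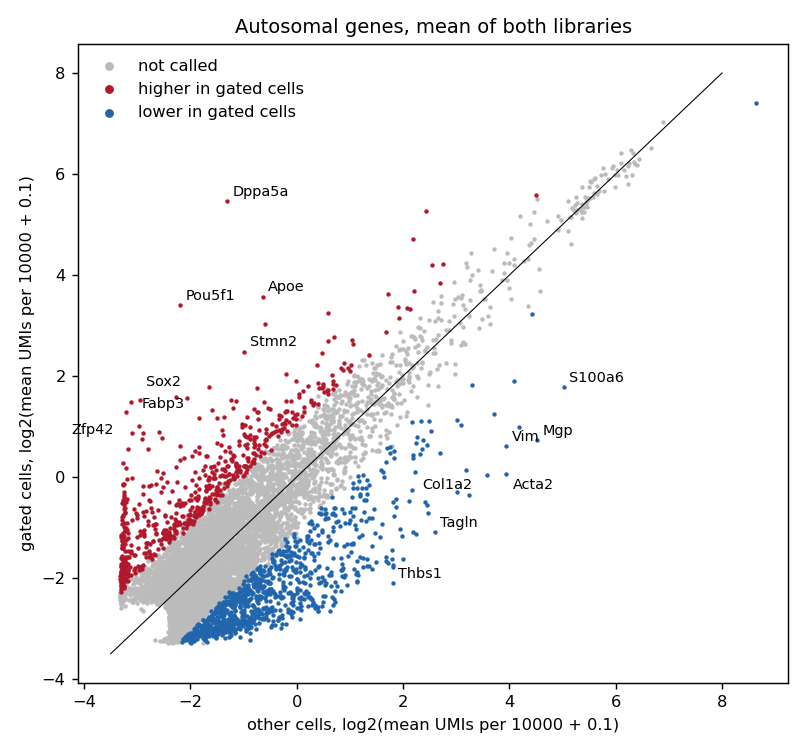
Each point is an autosomal gene, with log2(mean UMIs per 10000 + 0.1) in other cells on the x axis and in gated cells on the y axis, both averaged over the 2 libraries. Red points were called higher in gated cells (600 genes), blue points lower (969 genes), grey points were not called, and the line marks equal levels.

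Dppa5a had the largest difference among the genes called higher. Its mean was 38.7 and 48.9 UMIs per 10000 in gated cells of replicates 1 and 2, and 0.173 and 0.437 in other cells, a difference of 6.83 ± 0.14 (SE) on the log2 scale. Both gated means lay above both other means. Dppa5a lies on chromosome 9 of GRCm38, at chr9:78367052-78368177. After each cell was thinned to 4000 UMIs, 90.0% of gated cells in replicate 1 (interval 84.3 to 94.2) and 97.7% in replicate 2 (95.7 to 98.96) still had a UMI of it. The same share in other cells was 6.34% and 14.1%. How much of the latter was free RNA in droplets was not tested. Before thinning the shares were 92.5% and 98.99% of gated cells and 23.6% and 40.4% of other cells.

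Pou5f1, the POU-domain factor at the centre of the network, followed with 9.84 and 11.1 UMIs per 10000 in gated cells against 0.0835 and 0.154 in other cells (5.62 ± 0.10 SE; chr17:35506018-35510772). Sox2, its HMG-box partner, stood at 2.64 and 2.91 against 0.0330 and 0.0273 (4.46 ± 0.10; chr3:34650405-34652461). Pou5f1 and Sox2 are also on the cassette, and whether a UMI came from the cassette or from the endogenous gene was not tested. Zfp42 had 3.44 and 1.22 against 0.00785 and 0.00758 (4.33 ± 0.26; chr8:43295063-43306980). It had the largest SE of these 4 genes, because its level in gated cells differed between the libraries while that in other cells did not.

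Several of the 12 genes furthest above the other cells are not part of the transcription factor network. Fabp3, a fatty acid carrier of heart and muscle, stood at 2.57 and 2.80 UMIs per 10000 against 0.0157 and 0.0136. Apoe, a lipid carrier of lipoproteins, stood at 11.9 and 11.6 against 0.464 and 0.617, and its neighbour on chromosome 7, Apoc1, at 1.51 and 1.65 against 0.0275 and 0.0395. Mylpf, a myosin light chain of fast skeletal muscle, stood at 2.24 and 1.60 against 0.0283 and 0.0289. Their log2 differences ran from 3.65 to 4.60. Dnmt3l, the catalytically inactive partner of the de novo DNA methyltransferases, stood at 1.28 and 1.47 against 0.00612 and 0.0164. The septin gene Sept1, the RNA-binding protein gene Rbpms2 and Fam25c completed the 12, with differences of 3.85, 3.77 and 3.94. In each of these genes both gated means lay far above both other means.

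The 12 genes furthest below the other cells included collagens, other matrix proteins and smooth muscle actins. Thbs1, a matrix glycoprotein, had 0.115 and 0.151 UMIs per 10000 in gated cells against 4.27 and 2.52 (-3.87 ± 0.19 SE; chr2:118111876-118127133). Acta2, smooth muscle actin, had 1.02 and 0.859 against 18.7 and 11.6 (-3.84 ± 0.12; chr19:34241090-34255590). Mgp, an inhibitor of matrix calcification, had 1.16 and 1.97 against 22.8 and 22.9 (-3.83 ± 0.15). Tagln and Actg2, a further actin-binding protein and actin of smooth muscle, differed by -3.66 and -3.57. Timp3, Igfbp7, Cryab, Col1a2, Prkcdbp, Col3a1 and Ly6a followed, between -3.62 and -3.37. In limma the largest adjusted p among the 24 genes was 2.53e-06. The 24 were picked by the size of their difference, so this value is no further support for them.

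These RNAs were low in gated cells and not absent. In thinned cells, 33.1% of gated cells in replicate 1 (interval 25.9 to 41.0) and 22.4% in replicate 2 (18.4 to 26.8) still had a UMI of Acta2, against 81.9% and 67.8% of other cells. For Mgp the shares were 33.8% and 31.5%, against 81.3% and 87.9%. For Thbs1 they were 1.88% and 3.53%, against 37.1% and 27.3%. Before thinning, 88.1% and 67.0% of the gated cells had a UMI of Acta2. The part of free RNA in these shares was not tested either.

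Promoter sequences of RefSeq (build GRCm38.p6) were found for 14 of these 24 genes. The octamer ATGCAAAT, the site that POU-domain proteins such as Pou5f1 are known to bind, was searched on both strands in the 250 bases before each start site. It occurred in 2 of the 14, in Zfp42 among the higher and in Col3a1 among the lower genes. Both are shown because they carry the same letters and moved in opposite directions, with the octamer (or its reverse complement) in capitals and each sequence on the strand of its gene. The first base of the match lay 186 bases before the start site in Zfp42 (chr8:43307010-43307259, minus strand) and 148 bases before it in Col3a1 (chr1:45311288-45311537, plus strand).
Zfp42: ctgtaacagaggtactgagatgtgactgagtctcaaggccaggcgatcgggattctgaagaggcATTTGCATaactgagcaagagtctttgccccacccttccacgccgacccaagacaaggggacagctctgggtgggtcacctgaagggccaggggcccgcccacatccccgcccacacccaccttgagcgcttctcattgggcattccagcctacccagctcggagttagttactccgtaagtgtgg
Col3a1: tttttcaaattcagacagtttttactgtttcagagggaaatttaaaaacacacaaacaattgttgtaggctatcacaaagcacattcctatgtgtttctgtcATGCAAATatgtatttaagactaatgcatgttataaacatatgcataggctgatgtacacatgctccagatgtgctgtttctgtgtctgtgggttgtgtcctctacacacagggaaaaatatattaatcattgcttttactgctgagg

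Of all 32851 RefSeq promoters, 526 held the octamer in this window (1.60%). Among autosomal genes with a promoter it was held by 96 of 6166 tested (1.56%), by 8 of 470 called higher (1.70%) and by 18 of 720 called lower (2.5%). A match here is a run of letters and not a shown binding site.

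List counts here and below stand beside 7.49% called higher and 12.1% called lower over all autosomal genes. The transcription factors of the pluripotency network were higher in gated cells with few exceptions. Of 18 members tested, beside the gate gene Nanog, 14 were called higher and 1 lower, with a median difference of 1.96 on the log2 scale (1.99 and 2.01 in replicates 1 and 2). A member whose mean reached 0.1 in gated cells only had its direction largely fixed by that filter, so its call is a description, and the same holds in reverse for members tested through other cells only. That held for 10 of these 18, of which 9 were called higher, and of the other 8 members 5 were called higher. Summed over the list, the level was 27.8 UMIs per 10000 in gated cells of both libraries, against 2.98 and 2.90 in other cells. The Krüppel-like factors Klf2 (3.42), Klf5 (3.30) and Klf4 (1.94) were all higher, Klf4 being on the cassette as well. Sall4 differed by 2.76, Esrrb by 2.52, Mycn by 2.27, Zscan10 by 1.99, Tbx3 by 1.91, Zfp296 by 1.89 and Tfcp2l1 by 1.18. Trp53, the p53 gene, differed by 1.16. Stat3, which carries the signal of the cytokine LIF, was the member called lower, with 0.270 and 0.258 UMIs per 10000 against 0.769 and 0.711 (-1.21), and it was not called against depth-weighted other cells (-0.94). Myc, the remaining cassette factor, was low in both classes (0.0682 and 0.0323 against 0.147 and 0.118) and was not called. So of the 4 cassette genes, Pou5f1, Sox2 and Klf4 were called higher in gated cells and Myc was not.

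Pluripotency-associated genes that are not transcription factors gave 16 of 18 tested called higher and 0 lower, with a median of 2.31. Of these 18, 11 were tested through gated cells only, and 10 of them were called. Of the other 7, 6 were called higher. Beside Dppa5a, Mybl2, a regulator of cell cycle genes, differed by 3.64, the RNA-binding ubiquitin ligase Mkrn1 by 3.63, the maternal-effect gene Ooep by 3.27 and Tcl1, an activator of Akt kinase, by 3.12. Slc2a3, a glucose transporter, differed by 2.93 and the TGF-beta family ligand Gdf3 by 2.71. Lin28a, which blocks the let-7 microRNAs, had 0.286 and 0.266 UMIs per 10000 against 0.00153 and 0.00248 (1.88). L1td1 (0.76) and Fut9 (0.61) were not called. Dppa3, which protects methylation in the early embryo, differed by 3.12, and it had a UMI in 89 of 160 and 211 of 397 gated cells (55.6% and 53.2%), which fell to 22.5% and 19.7% after thinning.

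Germline genes were part of the same difference. Only 7 of 15 had a mean high enough to be tested, and 6 of these were called higher and 0 lower (median 1.60). Tex19.1 differed by 2.51, Dazl by 2.29, Tdrd12 by 1.95, Mael by 1.60, Rnf17 by 1.45 and Hormad1 by 1.44. All 7 were tested through gated cells only, so the count says nothing beyond their levels. Replicate 2 had the higher level of most: Dazl stood at 0.276 in replicate 1 and 0.595 in replicate 2, and Mael at 0.110 and 0.349, against means under 0.01 in other cells.

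Chromatin genes were called higher more often than lower in each of 3 lists, and most members of the first and the last were not called. Among 13 genes of DNA methylation and demethylation, 5 were called higher and 1 lower (median 0.70). Here 3 of the 5 were tested through gated cells only, and the 1 lower through other cells only. Tet1, which oxidises methylated cytosine, had 1.72 and 1.78 UMIs per 10000 against 0.0601 and 0.0702 (3.48), the de novo methyltransferase Dnmt3b differed by 2.44, and Uhrf1, which guides maintenance methylation, by 1.76. Apobec1, a cytidine deaminase, was lower (-1.34). Dnmt3a (-0.27), Tet2 (0.64) and Tet3 (-0.87) were not called. Of 22 genes of Polycomb and silencing complexes, 12 were called higher and 0 lower (median 1.26), 2 of these tested through gated cells only. Mtf2 (2.66), Jarid2 (2.43), Eed (1.81) and Ezh2 (1.71) belong to Polycomb repressive complex 2, Phc1 (2.14) and Cbx7 (1.41) to complex 1, and Hells (2.65), Trim28 (2.23) and Rest (2.1) to other silencing machinery. Among histone variants and chaperones, 6 of 22 were higher and 1 lower (median 0.55), beside 7.49% and 12.1% over all autosomal genes. The histone chaperone Nasp was furthest (2.77) and the linker histone H1f0 was lower (-1.21). With depth weighting, 5 were called higher and 2 lower (median 0.25), and Hmga2 became a lower call (-0.95 before, -1.42 after).

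**Figure D3:**
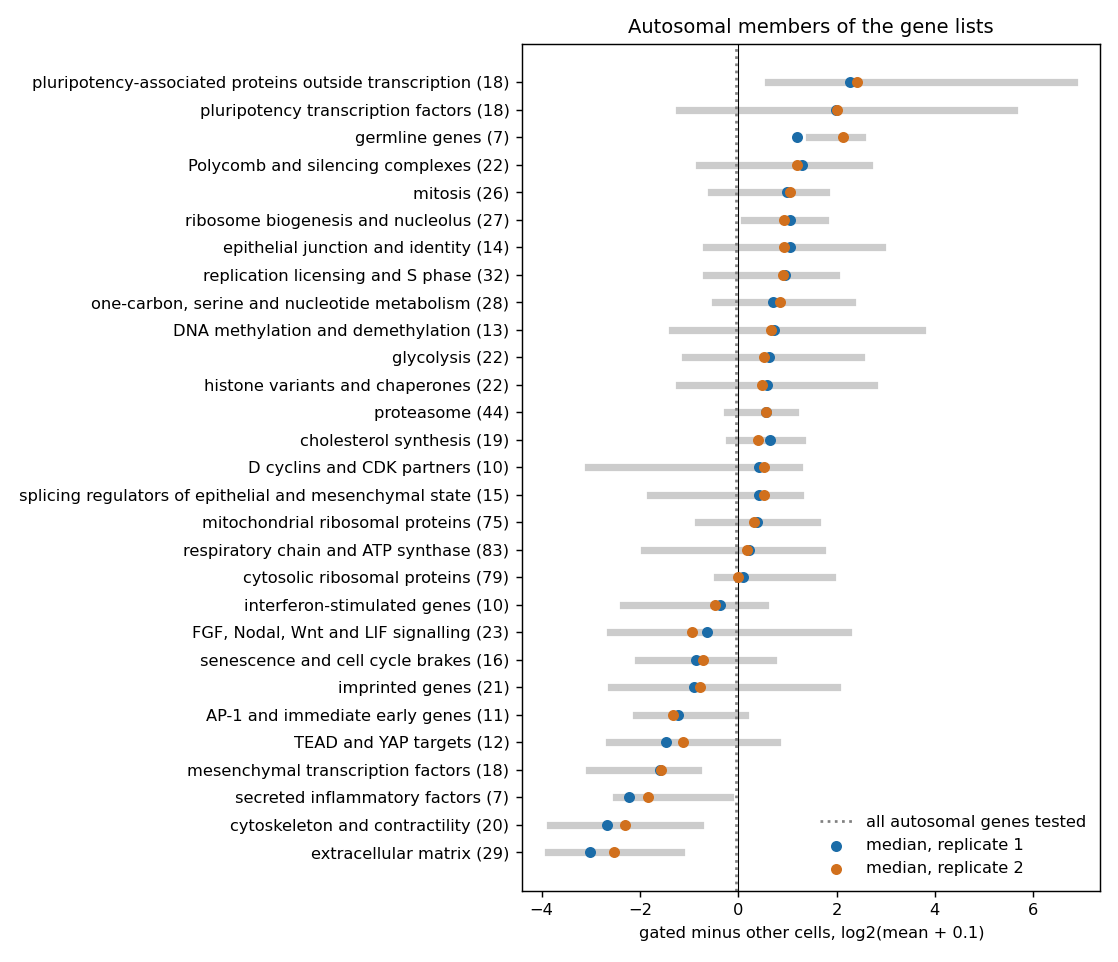
Each row is a gene list with its number of autosomal members tested in brackets. Points give the median difference, gated minus other cells on the log2(mean + 0.1) scale, in replicate 1 (blue) and replicate 2 (orange), grey bars span the members' lowest to highest mean difference, and the dotted line is the median of all 8009 autosomal genes (-0.05).

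The fibroblast program was the reverse of this. In the extracellular matrix list 28 of 29 members tested were called lower and 0 higher, with a median of -2.79 (-3.01 and -2.53 in replicates 1 and 2). Here 14 of the 29 were tested through other cells only, and all 15 of the rest were lower. The summed level was 8.63 and 9.05 UMIs per 10000 in gated cells against 93.1 and 63.6 in other cells. The fibrillar collagens Col3a1 (-3.41), Col1a2 (-3.48) and Col1a1 (-3.11), the collagen cross-linker Lox (-3.10) and the proteases and inhibitors Mmp14 (-3.03) and Timp2 (-3.04) were among them. In the cytoskeleton list 18 of 20 were lower and 0 higher (median -2.48), with 15 lower of the 16 that were not tested through other cells only. Vim, the intermediate filament of mesenchymal cells, had 1.39 and 1.47 against 15.9 and 14.6 (-3.33), S100a6 3.23 and 3.41 against 33.2 and 31.6 (-3.25), and Cald1, which restrains actomyosin, 0.668 and 0.769 against 8.76 and 7.16 (-3.30). Of 18 mesenchymal transcription factors, 15 were lower and 0 higher (median -1.54), of which 11 were tested through other cells only, led by Prrx1 (-3.04), Nfix (-2.79), Runx1 (-2.43) and Prrx2 (-2.39). Zeb1 (-1.10), Zeb2 (-1.52) and Twist1 (-1.18), repressors of epithelial genes, were also lower. With depth weighting 14 of the 18 factors were called lower.

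Epithelial genes were higher in part. Of 14 members tested, 5 were called higher and 0 lower, and the median was 0.96. Of the 14, 9 were tested through gated cells only, and 3 of the 5 calls were among them. Epcam had 1.63 and 1.24 UMIs per 10000 against 0.210 and 0.0283 (2.93), Cdh1, which encodes E-cadherin, 0.336 and 0.426 against 0.0101 and 0.00753 (2.14), and the tight junction gene Cldn4 0.309 and 0.332 against 0.00883 and 0.00807 (1.96). Cldn7 (1.23) was called as well, but not with the gate at 4 genes (0.99) or against depth-weighted other cells (1.04). The protease inhibitor Spint2 completed the 5 (1.45). Keratins of simple epithelia were not: Krt8 differed by 0.31, Krt18 by 0.24 and Krt19 by -0.65. In replicate 1, Krt8 averaged 1.42 in the 13 cells with 3 gate genes and 0.0305 in the other gated cells. Its mean in ungated cells was 0.0679. Krt18 was lower in gated cells of replicate 1 (0.115 against 0.148) and higher in those of replicate 2 (0.348 against 0.180). Against depth-weighted other cells 4 members were higher and 1, Krt19, was lower (-1.53). Levels of the whole list by gate number were uneven in replicate 1, at 5.08 with 2 gate genes, 16.9 with 3, 5.58 with 4 and 4.16 with 5.

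Stress and growth-arrest lists held genes called lower and none called higher, beside many members not called. Over all autosomal genes 12.1% were called lower and 7.49% higher. Of 11 AP-1 and immediate early genes, 6 were lower and 0 higher (median -1.34), 1 of these tested through other cells only. Among the 6 were Junb (-2.07), Egr1 (-1.87), Fos (-1.74) and Jun (-1.44). Fos was not called against depth-weighted other cells (-0.995). Of 12 genes of the TEAD and YAP pathway, 6 were lower (median -1.35), 3 of these tested through other cells only. Axl (-2.64) and Cyr61 (-2.12) were furthest and Yap1 (-0.46) was not called. Of 16 senescence and cell cycle brake genes, 5 were lower and 0 higher (median -0.78), 2 of these 5 tested through other cells only. The 5 were Cdkn1c (-2.04), Cdkn2a (-1.95), Cdkn2b (-1.86), Cdkn2c (-1.58) and Phlda3 (-1.13). Cdkn2a and Cdkn2b encode inhibitors of the cyclin D kinases. Cdkn1a (-1.19) differed less than 2-fold in at least 1 library and was not called. Of 23 secreted inflammatory factors in the table, 7 were tested and 6 were lower, all 6 tested through other cells only, Cxcl12 (-2.49) and Ccl7 (-2.46) among them, and Mmp13 and Mmp3 were not called against depth-weighted other cells. Spp1 was the member not called, with 5.44 and 7.41 UMIs per 10000 in gated cells against 8.93 and 5.74. The mean of the summed list was 5.78 and 7.76 in gated cells against 12.8 and 8.78. Its median over thinned cells went the other way, at 5.0 in gated and 2.5 in other cells of both libraries. In replicates 1 and 2, 88 of 160 and 260 of 397 gated cells lay above the median of the other cells. Among 10 interferon-stimulated genes, B2m (-2.34), H2-D1 (-1.48) and H2-K1 (-1.47), which form class I molecules of antigen presentation, were lower and none was higher. Here 2 of these 3 were tested through other cells only.

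Growth and cell cycle lists lay between these extremes, and several of their calls were lost against depth-weighted other cells. The shares over all autosomal genes were 7.49% higher and 12.1% lower. Of 26 mitosis genes, 12 were called higher and 0 lower (median 1.01), for example Ccnb2 (1.78), Ccnb1 (1.66) and Cdc20 (1.58). Of these 12, 1 was tested through gated cells only. Against other cells weighted to the depth of the gated cells, 0 of 26 were called higher and 1 was called lower, and the median was 0.30. The lower one was Mki67, a marker of cycling cells (-0.55 and not called before weighting, -1.28 after). Of 32 genes of replication licensing and S phase, 15 were called higher and 0 lower (median 0.90), with Gmnn (1.99), Mcm5 (1.62), Mcm3 (1.54) and Cdt1 (1.53) among them. Here 2 of these 15 were tested through gated cells only. With depth weighting, 8 were called higher and 1 lower (median 0.54). The D cyclins, which start the cycle in response to growth factors, were split. Ccnd2 had 1.21 and 0.799 UMIs per 10000 in gated cells against 9.78 and 8.14 (-3.06) and Ccnd1 differed by -1.5, while Ccnd3 differed by 1.24.

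Nucleolar and metabolic lists had smaller medians, and their counts stand beside 7.49% higher and 12.1% lower over all autosomal genes. All 27 genes of ribosome biogenesis had a positive difference, 11 were called higher and 0 lower, and the median was 0.96. Rrp9 (1.76), Nop56 (1.59), Nhp2 (1.58), Nop58 (1.5) and nucleolin, Ncl (1.48), were among them, and 7 of 27 were called with depth weighting. The 79 cytosolic ribosomal protein genes had a median of 0.05, with 2 called higher, the paralogs Rpl10l (1.90) and Rpl39l (1.18), and 0 lower. Rpl10l was tested through gated cells only. Reads of these paralogs may be shared with near-identical copies. Of 28 genes of one-carbon, serine and nucleotide metabolism, beside the gate gene Tdh, 8 were higher and 0 lower (median 0.82). Here 2 of these 8 were tested through gated cells only, and with depth weighting 6 of the 28 were called higher. Mthfd2, the mitochondrial folate enzyme, differed by 2.31, and Gcat, which acts directly after the product of Tdh in threonine breakdown, by 1.85. The glycine cleavage genes Gldc (1.54) and Amt (1.5) were higher too. In glycolysis 4 of 22 were higher (median 0.58), Ldhb (2.49), Hk2 (1.82), Slc2a1 (1.60) and Pfkp (1.51), while Ldha was not called (0.21).

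Few genes of the respiratory chain, mitochondrial ribosome, proteasome and cholesterol synthesis were called. The respiratory list had a median of 0.18, with 3 of 83 called higher, Cox7b2, Cox5a and Uqcrc1, and 2 lower, Ndufa4l2 and Cox4i2. Cox7b2 was tested through gated cells only and Cox4i2 through other cells only. Cox5a, Uqcrc1, Ndufa4l2 and Cox4i2 were no longer called with depth weighting, which gave 2 higher and 0 lower. Of 75 mitochondrial ribosomal proteins 5 were higher and 0 lower (median 0.32), 1 of the 5 tested through gated cells only. Of 44 proteasome genes 2 were higher and 0 lower (0.55), and of 19 cholesterol genes 2 were higher and 0 lower (0.54). With depth weighting the last 3 lists had 4, 1 and 1 called higher. All these counts are below the shares over all autosomal genes for lower calls (12.1%), and those of the respiratory, mitochondrial ribosome and proteasome lists also for higher calls (7.49%).

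Signalling genes were called in both directions, beside 7.49% higher and 12.1% lower over all autosomal genes. Of 23 genes of FGF, Nodal, Wnt and LIF signalling, 4 were higher and 8 lower (median -0.77). Here 3 of the 4 were tested through gated cells only, and 4 of the 8 through other cells only. The ligand Fgf4 (2.22), the Nodal inhibitor Lefty2 (2.09), the Wnt effector Lef1 (1.15) and the FGF target Etv5 (1.03) were higher, and Etv5 was not called with depth weighting (0.92). The receptor Fgfr1 (-1.73), the secreted Wnt antagonists Dkk2 (-2.13), Sfrp1 (-1.85) and Dkk3 (-1.69), the ligands Tgfb2 (-1.39) and Tgfb3 (-1.43), and the BMP targets Id3 (-2.62) and Id1 (-1.53) were lower. Of 21 imprinted genes, 4 were higher and 8 lower (median -0.96). Among these, 2 of the 4 were tested through gated cells only, and 2 of the 8 through other cells only. With depth weighting 20 were tested, of which 4 were called higher and 6 lower. Phlda2 (2.01), Ascl2 (1.55), Snrpn (1.54) and Peg3 (1.53) were higher. H19 had 0.489 and 0.753 UMIs per 10000 against 4.31 and 4.09 (-2.60), Meg3 4.27 and 2.98 against 22.9 and 10.9 (-2.11), and Igf2 differed by -1.22. Among splicing regulators, 2 of 15 were higher, Srsf7 (1.25) and Lsm2 (1.23), and 2 lower, Mbnl2 (-1.79) and Mbnl1 (-1.77), which is near the shares over all autosomal genes (7.49% and 12.1%) and no result about the list. Only the pair of Mbnl genes was called with depth weighting.

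**Figure D4:**
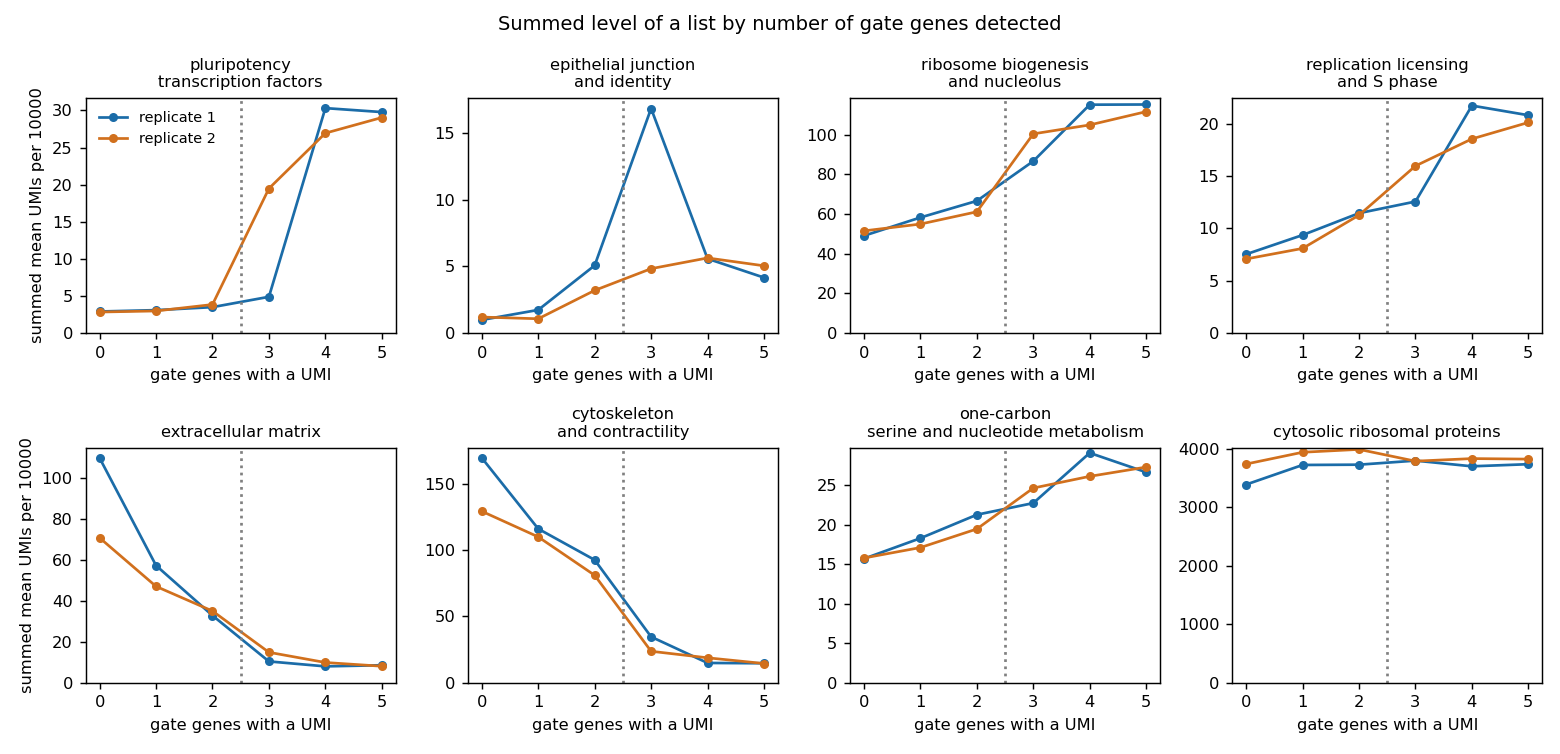
Summed mean level (UMIs per 10000, axes from 0) of 8 gene lists in cells with 0 to 5 gate genes, for replicate 1 (blue) and replicate 2 (orange), with the gate at the dotted line. The factor list stood between 2.84 and 3.85 outside the gate and at 26.9 or more with 4 or 5 gate genes, while the matrix list was already lower in cells with 1 gate gene than in those with 0.

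The programs did not all follow the gate in the same way. The factor list stood at 2.91, 3.09 and 3.50 UMIs per 10000 in replicate 1 cells with 0, 1 and 2 gate genes, and at 30.3 and 29.8 in those with 4 and 5. In replicate 2 the values were 2.84, 2.98 and 3.85, then 26.9 and 29.0. The matrix list was graded outside the gate as well, at 109.7, 57.2 and 32.8 with 0, 1 and 2 gate genes in replicate 1 and 70.8, 47.1 and 35.0 in replicate 2, and at 8.57 and 8.09 with 5. Ribosome biogenesis had 49.1, 58.3 and 66.6 outside the gate and 115.2 with 5 gate genes in replicate 1, and 51.5, 55.0, 61.1 and 111.6 in replicate 2. Cells with more gate genes were also deeper, with medians of 14370, 16889 and 20184 UMIs for 0, 1 and 2 gate genes in replicate 1. The part of depth in these gradients was not tested.

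Among the gated cells themselves the factor list was broad but rarely low. In cells thinned to 4000 UMIs, its sum had a median of 27.5 UMIs per 10000 in both libraries, and upper quartiles of 37.5 and 35.0. The median of other cells was 2.5 in both, which is the level of 1 UMI. Of the gated cells, 147 of 160 and 379 of 397 lay above the 95th percentile of the other cells of their library. In the reverse direction, 0 of 2949 other cells in replicate 1 and 3 of 3517 in replicate 2 lay above the lower quartile of the gated cells. For the matrix list the thinned medians were 7.5 and 7.5 in gated cells and 52.5 and 35.0 in other cells, and 2 of 160 and 16 of 397 gated cells lay above the median of the other cells. These 2 and 16 cells had median depths of 35436 and 27832 UMIs. Whether they were droplets with more than 1 cell was not tested.

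**Figure D5:**
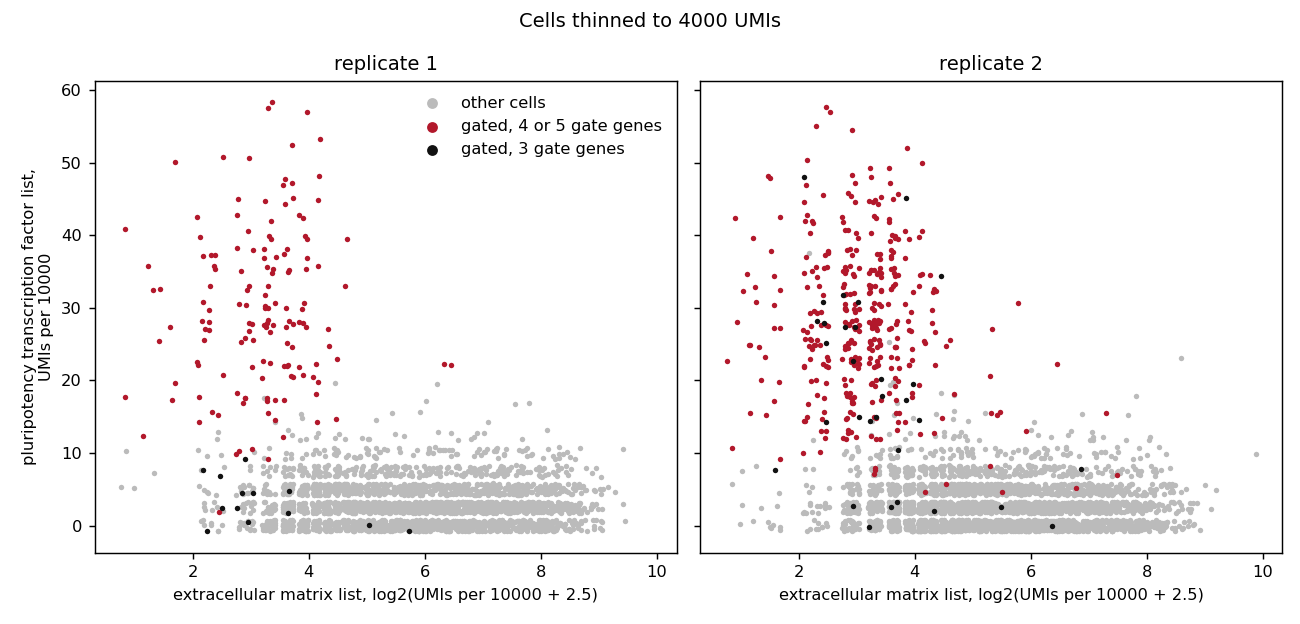
Each point is a cell thinned to 4000 UMIs, with the summed extracellular matrix list on the x axis (log2 of UMIs per 10000 plus 2.5) and the summed pluripotency transcription factor list on the y axis (UMIs per 10000), with small random shifts so that equal values do not overlap. Red cells had 4 or 5 gate genes, black cells 3, grey cells fewer. The 13 black cells of replicate 1 lie at the low factor level of the grey cells, and most of the 31 of replicate 2 among the red ones.

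Gated cells of both libraries were alike in most genes. Of the 8009 autosomal genes, 21 differed 2-fold or more between their gated cells, with no test: 12 were higher in replicate 1, and 9 in replicate 2. The same count in other cells was 17. Zfp42 was higher in replicate 1 (3.44 against 1.22), while Otx2, a factor of the formative epiblast, was higher in replicate 2 (0.886 against 0.324), as was Mael. Ly6d, Tac2 and Sprr2b, which were higher in replicate 1 here, were also the genes furthest up in its 13 cells with 3 gate genes. Gm10709 was 7.22 in replicate 1 and 0.118 in replicate 2, a difference also seen in the other cells.

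Markers of other cell types were measured as whole lists. Of 15 fibroblast markers, 13 were tested and 12 were lower, 5 of these tested through other cells only. The summed level was 5.28 and 5.37 UMIs per 10000 in gated cells against 59.5 and 42.4. The 2 highest in gated cells were Fn1 (1.64 and 1.49 against 5.79 and 4.34) and Vim. Thy1, a surface protein of fibroblasts, stood at 0.183 and 0.245 against 3.42 and 2.83 (-3.36). Of the 10 autosomal primed epiblast markers in the table, 7 were tested and 5 were higher, all 5 tested through gated cells only, with a summed level of 2.29 and 2.54 against 0.343 and 0.335. Otx2 and Dnmt3b were the highest, and Fgf5, a defining gene of that state, had a UMI in 0.625% and 2.02% of thinned gated cells, against 0.0678% and 0.142% of other cells. The 12 primitive endoderm markers summed to 2.46 and 2.81 against 18.0 and 13.3. The matrix genes Sparc (2.07 and 2.51) and Col4a1 (0.276 and 0.133) made up most of the gated sums. Gata4, Sox7, Foxa2 and Pdgfra had no UMI in the gated cells of replicate 1, and the first 3 had none in its other cells either. In replicate 2, 0 of the 12 lacked a UMI in gated cells. Before thinning Gata6 was found in 5% and 5.54% of gated cells, against 1.12% and 3.16% of the shallower other cells. After thinning the direction was reversed, at 0% and 0.504% of gated cells against 0.441% and 1.31% of other cells.

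The neural list had 3 of 6 tested members higher (2 of these tested through gated cells only) and 1 lower. With depth weighting it had 2 higher and 2 lower. Its sum, 7.43 and 5.68 against 1.69 and 1.26, was mostly Stmn2, a regulator of microtubules in neurons, at 6.26 and 4.74 against 0.369 and 0.439 (3.46), and Tubb3 (0.488 and 0.424) followed. In thinned cells Stmn2 had a UMI in 77.5% and 73.3% of gated cells against 8.27% and 8.22% of other cells. Trophoblast markers summed to 0.644 and 0.896 against 0.108 and 0.154, with 3 of 4 tested called higher (2 with depth weighting), all 4 tested through gated cells only, Tfap2c and Ascl2 highest, and Gcm1 and Tpbpa without a UMI in gated cells of either library. Keratinocyte markers summed to 1.39 and 0.968 against 0.548 and 0.417, with a median difference of 0.786 in replicate 1 and -0.203 in replicate 2. Sfn (0.613 and 0.624 against 0.0561 and 0.0377) and Perp (0.244 and 0.163 against 0.249 and 0.205) were highest, and Perp was not higher than in other cells. Ly6d, a further member, averaged 2.96 in the 13 cells of replicate 1 with 3 gate genes and 0.00802 in its other gated cells. In that list 1 of 5 was called higher, tested through gated cells only, and Krt6a, Trp63 and Ivl had no UMI in gated cells. The endothelial sum was 0.662 and 0.847 against 0.583 and 0.646, with 2 of 4 higher (Egfl7 and Pecam1, both tested through gated cells only). In that list 1 was lower, tested through other cells only, and Cdh5 had no UMI in gated cells. Macrophage markers summed to 0.669 and 0.596 against 1.03 and 1.30, with 0 of 3 called, and Ptprc, Csf1r and Adgre1 without a UMI in gated cells. Laptm5 (0.540 and 0.412 against 0.641 and 0.499) and Cd68 (0.112 and 0.157 against 0.0455 and 0.0852) were highest. Of 17 two-cell-like markers listed, 0 were tested. These lists overlap with others above, and their part in the differences was not tested.

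Called genes lay on all 19 autosomes. The share called higher ran from 5.60% on chromosome 16 to 10.4% on chromosome 17, beside 7.49% over all autosomes. The share called lower ran from 6.28% on chromosome 17 to 17.4% on chromosome 6, beside 12.1%.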

How the data were processed

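Single-cell 3' RNA-seq (10X Genomics, V2 chemistry) was available for 2 libraries of 1 group. According to the study's methods and the submitters' processing notes, the authors aligned and counted reads with Cell Ranger (version 2.1.1, mm10), kept cells with over 1500 and under 6000 genes and under 9% mitochondrial RNA, and normalized in Seurat. The deposited values are the natural log of 1 plus UMIs per 10000 of the cell. Each value above 0 was a whole multiple of the smallest of its cell within 0.01 (100% of values), so UMIs were recovered: 54145377 in 3109 cells and 64654306 in 3914 cells, between 4753 and 60990 per cell. The sources used here give no doublet removal, and no doublets were called.

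The gate, gene lists and tests were chosen with earlier results of these data known. Genes were placed on GRCm38 with GENCODE M21 by symbol (16809) or RefSeq synonym (412), and 187 were not placed. Tested were genes whose mean reached 0.1 UMIs per 10000 in any of 4 profiles (gated and other cells of each library): 8322 genes, 8009 autosomal. Of the autosomal ones, 928 passed through gated cells only and 1545 through other cells only. limma (version 3.58.1, R version 4.3.3) was fitted to log2(mean + 0.1), with class and library in the model, and p-values were adjusted over all genes tested. Log2 differences of low genes are understated by the pseudocount. Replicate numbers follow accession order. The p-values set each class difference only against its variation between these 2 libraries, estimated partly from all genes tested. The 12 genes furthest each way, the called members of each list with the largest difference, any member called the other way, and the 2 highest markers of each other cell type were named. Shares of cells with a UMI were taken after thinning each cell to 4000 UMIs, with exact (Clopper-Pearson) 95% intervals. Before use, the fit was tested on simulated data. As both classes of a library came from the same preparation, the library term pairs them by design.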

Additional observations from a re-analysis of the deposited data

How the results depend on the processing

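The counts of genes depended on the pseudocount, the filter and the gate. With a pseudocount of 0.01, 1087 autosomal genes were called higher and 1749 lower, which included all 600 and 969. With a pseudocount of 1 there were 59 and 113, since most genes are too low for a 2-fold difference on that scale. A filter at a mean of 0.5 left 265 and 293. A gate at 2 genes gave 375 and 490. No filter, only other cells with 0 gate genes, a gate on thinned cells, summed UMIs, gated cells without the deepest, and (chosen after seeing the data) no barcodes found in both libraries each gave between 544 and 636 higher and between 938 and 1026 lower. Without the replicate block, that is with no library term, the counts were 600 and 969. With 1 library left out there is no test, and 698 to 760 genes were 2-fold higher and 1056 to 1228 were 2-fold lower. The mean share of gated cells was 7.65% (5.15% to 10.1% by library), 10.3% with the gate at 2 genes, 7.04% at 4 genes and 5.02% on thinned cells.

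Of 176 genes followed through these settings, none changed direction where it was tested, and the filter at 0.5 left 118 of them. Of the 176, 27 were no longer called against depth-weighted other cells, 35 with the gate at 2 genes and 106 with a pseudocount of 1. The median of the macrophage markers turned from -0.22 to 0.19 with depth weighting, where 2 in place of 3 were tested. That of the keratinocyte markers turned from 0.291 to -0.225 with the gate at 4 genes. Lists with no member above a mean of 0.5 gave no median at that filter. Depth limits low genes most: 1 UMI in a cell thinned to 4000 is 2.5 UMIs per 10000.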

Other observations

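Some of the most abundant RNAs also differed. These genes were chosen after their values were seen, by the highest mean among called genes. Malat1, a nuclear long noncoding RNA, stood at 170.7 and 170.6 UMIs per 10000 in gated cells of replicates 1 and 2, against 416.0 and 382.7 in other cells (log2 difference -1.23), and at -0.84 against depth-weighted other cells. Hsp90aa1, a cytosolic chaperone, stood at 36.6 and 40.4 against 5.29 and 5.32 (2.83, and 2.29 with depth weighting). Eif2s2, a subunit of the initiation factor that brings the first tRNA to the ribosome, stood at 27.0 and 25.2 against 4.62 and 4.29 (2.52, and 2.21 with depth weighting). Chchd10, a mitochondrial protein, stood at 18.9 and 17.7 against 5.72 and 5.72 (1.66, and 2.02 with depth weighting). Fth1, the ferritin heavy chain that stores iron, stood at 8.90 and 9.73 against 21.1 and 21.5 (-1.19, and -0.95 with depth weighting). Ptma, prothymosin alpha, stood at 48.5 and 47.2 against 22.3 and 23.0 (1.07, and 0.83 with depth weighting). Malat1, Fth1 and Ptma were no longer called with depth weighting.

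Some cells outside the gate had RNA of genes that led inside it. A UMI of both Dppa5a and Pou5f1 was found in 99 of 2949 other cells in replicate 1 and in 300 of 3517 in replicate 2, and 8 and 16 of these had 2 gate genes.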
